A study of Homo sapiens with 4 samples.

Results

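Antibodies to YAP, TAZ, Merlin, the 14-3-3 proteins beta, epsilon and zeta, and the YAP/TAZ target protein Axl were followed in LN229 cells treated with salmon calcitonin (sCT). They were taken from the panel by name, as every antibody to one of these proteins or to a phosphorylated site on it. They made up 8 of the 440 antibodies, 7 to total proteins and 1 to a site, S127 of YAP (YAP_pS127). LN229 cells are an established line from a human glioblastoma, a malignant brain tumour, and calcitonin is a peptide hormone that binds the calcitonin receptor. Protein levels were measured by RPPA (reverse phase protein array), which prints cell lysates as spots and stains all spots of a slide with 1 antibody. The study compared 2 untreated samples, labelled 0 min, with 2 samples given 300 nM sCT for 60 min. The samples of a group are described as biological duplicates. All samples came from this 1 cell line, and no vehicle-treated sample at 60 min is among them, so the treatment and the elapsed time cannot be told apart.

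The Hippo pathway is a kinase cascade that restrains growth. Merlin, the product of the tumour suppressor gene NF2, sits at the cell cortex and promotes the activity of the kinases MST and LATS. LATS phosphorylates the transcriptional coactivators YAP and TAZ (genes YAP1 and WWTR1), at S127 in YAP. The phosphorylated coactivators are bound by 14-3-3 proteins, kept in the cytoplasm and marked for degradation. Unphosphorylated YAP and TAZ enter the nucleus, bind TEAD factors and switch on target genes, among them AXL. YAP and TAZ are known in glioblastoma for their association with invasive growth and stem-like states.

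Of the 8 antibodies, 5 fell after sCT and 3 rose. TAZ fell the furthest, to 33.4% of its untreated level. YAP, Merlin and Axl fell to between 57.3% and 63.7%, and YAP_pS127 fell to 89.6%. The 3 antibodies to 14-3-3 proteins rose by 15.1% to 22.5%. The test was limma on log2 levels, with Benjamini-Hochberg adjustment over all 440 antibodies and a threshold of 0.05. Over the whole panel 55.0% of the antibodies passed, 33.6% lower and 21.4% higher, so that a called antibody was common on this panel. The sCT and untreated samples did not overlap for 8 of the 8 antibodies, against 85.9% of the panel. The median log2 fold change was -0.41 over the 8 antibodies and 0.02 over the 440. YAP, TAZ, Merlin, 14-3-3-zeta and 14-3-3-epsilon were among the proteins that the study itself picked from these samples, so their count is not independent evidence of a direction.

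**Figure D1:**
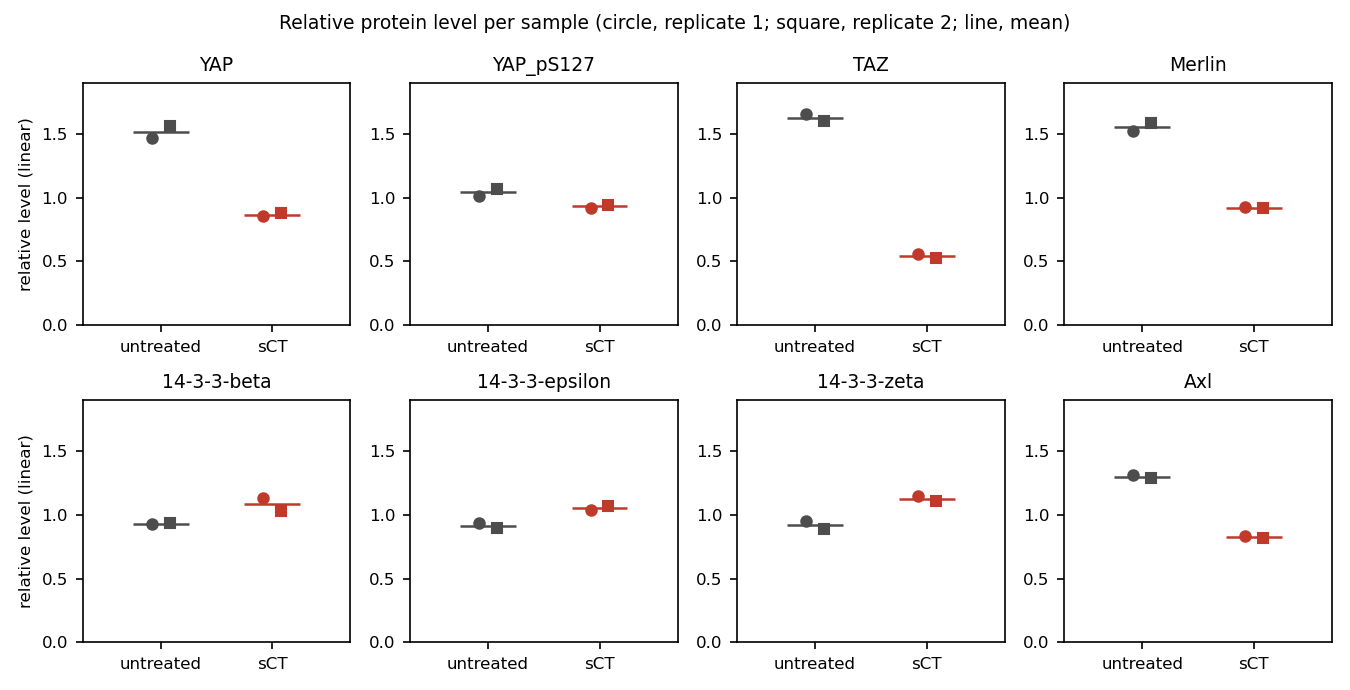
Relative protein level (linear, median of each sample 1.0) of the 8 antibodies in the 2 untreated and 2 sCT-treated samples, with the group mean as a line. The groups are apart in 8 panels, with TAZ at a mean of 1.63 in untreated cells and 0.544 after sCT.

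A level is a linear ratio on a scale on which the median of each sample was 1.0, and it compares samples for 1 antibody, not antibodies with each other. Levels ran from 0.0450 to 6.88 over the panel. The log2 difference between the replicates of a group lay between 0.01 and 0.14 for the 8 antibodies, and its median over the panel was 0.06 in either group. Spot intensities were not used here, so the signal over background is unknown, and the precision is limited by the number of samples, 4 in all. Among 88 site antibodies of the panel 42 were lower and 9 higher, with a median log2 fold change of -0.16. Among the 352 others 106 were lower and 85 higher, with a median of 0.05.

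Merlin, the upstream regulator, was at 1.53 and 1.58 in the untreated samples and at 0.928 and 0.916 after sCT. Both sCT samples were well below both untreated samples. Merlin fell by 0.75 on the log2 scale (SE 0.05, 95% CI -0.88 to -0.63, adjusted p = 0.000340), to 59.3% of its untreated level. It ranked at place 71 of 440 from the largest fall. On the panel there were no relatives of Merlin from the ezrin, radixin and moesin family that the name search matched, and they were not analysed here.

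YAP had a level of 1.47 and 1.56 in the untreated samples and of 0.858 and 0.877 in the sCT samples. The lowest untreated level was well above the highest sCT level. YAP fell by 0.80 on the log2 scale (SE 0.05, 95% CI -0.94 to -0.66, adjusted p = 0.000419), at place 67 from the largest fall. Taking every sCT sample against every untreated sample, the ratio lay between 0.549 and 0.598.

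TAZ, the paralog of YAP, was at 1.65 and 1.60 in untreated cells and at 0.560 and 0.528 after sCT. The group means were 1.63 ± 0.0373 and 0.544 ± 0.0230 (SD, n = 2 each). TAZ fell by 1.58 on the log2 scale (SE 0.05, 95% CI -1.72 to -1.44, adjusted p = 0.000131), to 33.4% of its untreated level. It was at place 21 from the largest fall, and single pairs of samples gave ratios between 0.319 and 0.350. The name TAZ is also an older name of tafazzin, and the antibody was taken for the Hippo coactivator, as in the study.

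**Figure D2:**
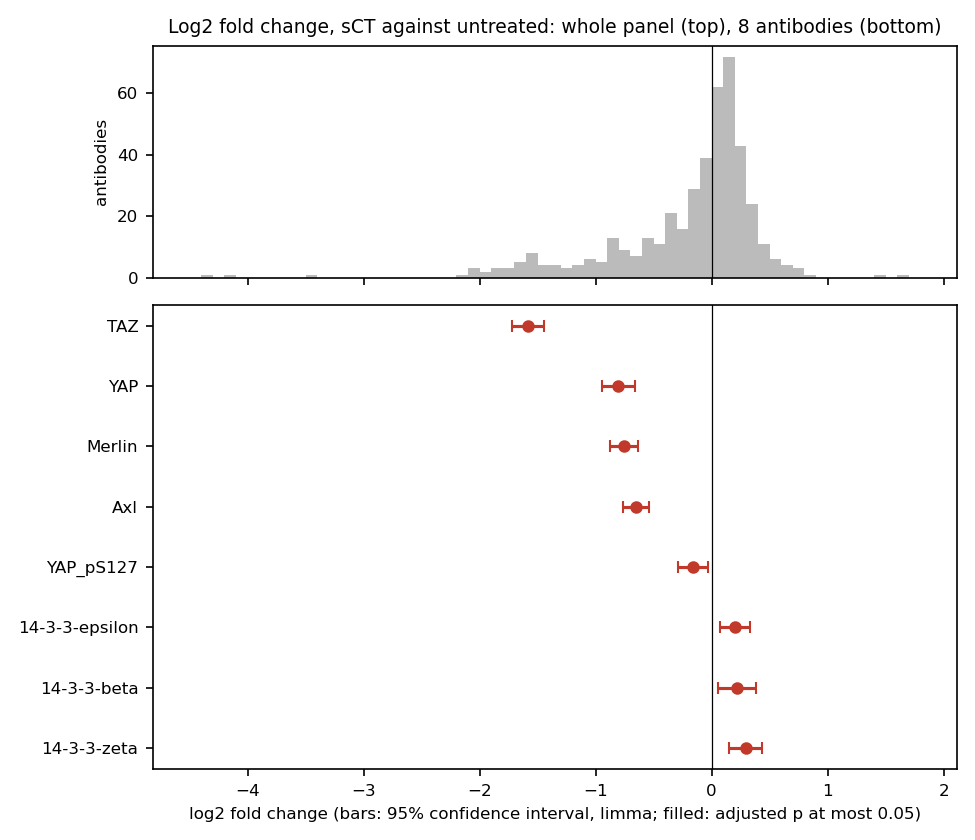
Log2 fold change of sCT-treated against untreated samples, as a histogram over the 440 antibodies (top) and for the 8 antibodies with their 95% confidence intervals from limma (bottom, filled where the adjusted p was at most 0.05). TAZ at -1.58 lies in the lower tail of the panel, YAP, Merlin and Axl lie between -0.80 and -0.65, and the 14-3-3 proteins lie between 0.20 and 0.29, within the main body of the panel.

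The signal of TAZ fell by more than that of YAP. The log2 level of TAZ minus that of YAP was 0.17 and 0.04 in the untreated samples and -0.61 and -0.73 in the sCT samples. As a ratio, TAZ over YAP went from 1.13 and 1.02 to 0.654 and 0.602. The log2 fold change of TAZ was further down by 0.78 log2 units (SE 0.09 from the replicates), which is 1.71-fold. This difference is taken within each sample, so that a factor that scales a whole sample drops out of it. A difference in how the antibodies respond to their proteins does not drop out. Whether both respond in proportion was not tested. With 2 samples against 2, an exact permutation test cannot give a two-sided p below 0.333, and it gave p = 0.333 here, or 0.381 after Benjamini-Hochberg adjustment over the 16 pairs of antibodies compared. A limma fit of all other antibodies relative to YAP, which was chosen after the levels were seen, gave a 95% CI of -0.98 to -0.57 for this difference and an adjusted p of 0.000322. In that fit 91.8% of 439 antibodies differed from YAP in their change, and 10.7% had fallen by more than YAP, TAZ among them.

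The S127 site of YAP kept more of its signal than the total protein. YAP_pS127 was at 1.02 and 1.07 in untreated cells and at 0.919 and 0.947 after sCT, so that the groups were apart by a small gap. It fell by 0.16 on the log2 scale (SE 0.05, 95% CI -0.29 to -0.03, adjusted p = 0.0497), which is just inside the threshold. The call was lost with each of the 4 samples left out in turn (log2 fold change -0.19 to -0.12, adjusted p between 0.0630 and 0.201) and under quantile normalization (adjusted p = 0.0879). The fall was of the size of the median over all site antibodies of the panel, given above.

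Relative to total YAP, the S127 signal was higher after sCT. The ratio of YAP_pS127 to YAP was 0.693 and 0.682 in the untreated samples and 1.07 and 1.08 in the sCT samples. The replicates nearly coincided, and the groups did not overlap. Nor did they overlap in most of the site and total pairs described below. The log2 difference rose by 0.65 (SE 0.01 from the replicates), or 1.56-fold. The exact permutation test gave p = 0.333, the smallest it can give. In the fit relative to YAP, limma gave a 95% CI of 0.50 to 0.79 and an adjusted p of 0.000170, on a panel where 91.8% passed. YAP_pS127 itself fell, so the rise of the ratio came from the larger fall of total YAP. A ratio of this kind rests on levels set for each antibody separately and does not give the phosphorylated share itself. Whether it gives a change of that share depends on both antibodies responding in proportion, which was not tested.

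The same comparison was made for every site that could be matched to its total protein by name, 51 pairs. Sites whose total has another name on the panel, such as those of p27, were left out. The site's log2 fold change exceeded that of its total in 23 of them and was below it in 28, with a median difference of -0.06 log2 units. YAP_pS127 at 0.65 was at place 12 from the highest. Of the 21 sites whose total protein was called lower, 18 had a positive difference, and 9 had a site that was itself called lower, YAP_pS127 among them. The largest differences of this kind were those of Wee1_pS642 at 1.61 and Chk1_pS296 at 1.50, on 2 cell cycle checkpoint kinases, with Akt2_pS474 at 0.66 next to YAP_pS127. These 21 pairs were chosen for a low total, which is the term subtracted, so that their differences lean towards positive values by construction. No test set YAP apart from the others.

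**Figure D3:**
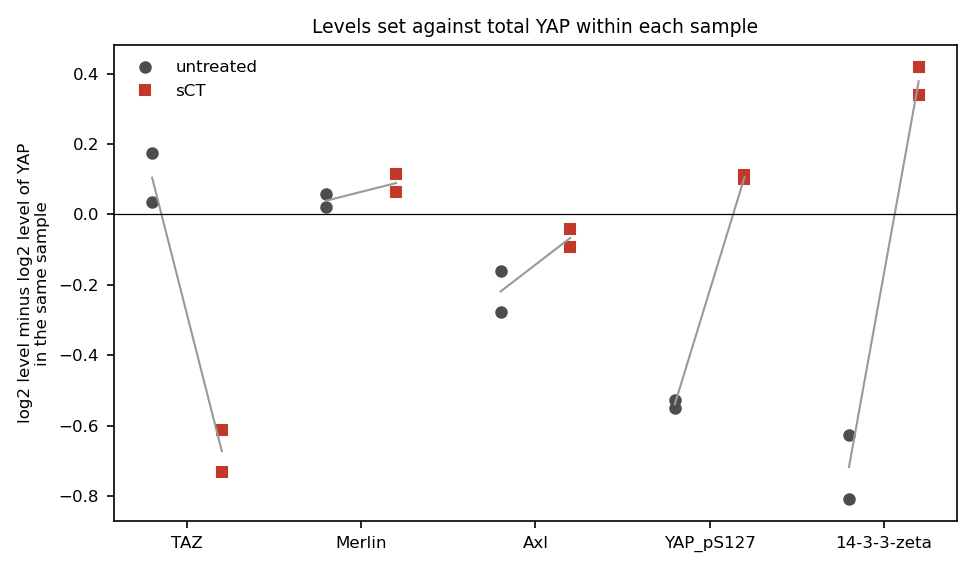
Log2 level minus the log2 level of total YAP in the same sample, for TAZ, Merlin, Axl, YAP_pS127 and 14-3-3-zeta, with untreated samples as circles, sCT samples as squares and a line between the group means. The line falls for TAZ (0.10 to -0.67), is nearly flat for Merlin (0.04 to 0.09) and Axl (-0.22 to -0.07), and rises for YAP_pS127 (-0.54 to 0.11) and 14-3-3-zeta (-0.72 to 0.38).

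The 14-3-3 proteins, small adaptors that bind phosphorylated serines and threonines on many partners, were slightly higher after sCT. Their isoforms are closely similar in sequence, and whether each antibody recognises its own isoform alone was not tested. 14-3-3-zeta (gene YWHAZ) was at 0.950 and 0.891 in untreated cells and at 1.15 and 1.11 after sCT. 14-3-3-epsilon (YWHAE) was at 0.937 and 0.895 and then at 1.04 and 1.07. 14-3-3-beta (YWHAB) was at 0.929 and 0.936 and then at 1.14 and 1.03.

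The sCT and untreated samples did not overlap for any of the 3 isoforms, as was so for 85.9% of the panel. The log2 fold change was 0.29 for zeta (SE 0.05, 95% CI 0.15 to 0.44, adjusted p = 0.0101). It was 0.20 for epsilon (SE 0.05, 95% CI 0.07 to 0.33, adjusted p = 0.0242) and 0.22 for beta (SE 0.06, 95% CI 0.05 to 0.38, adjusted p = 0.0381). They ranked at places 53, 93 and 80 from the largest rise. The changes of the isoforms differed by less than 2 standard errors. Zeta exceeded epsilon by 0.09 (SE 0.05, exact permutation p = 0.333) and beta by 0.08 (SE 0.07, exact permutation p = 0.667), and beta exceeded epsilon by 0.01 (SE 0.10, exact permutation p = 1).

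Some loading control antibodies were higher as well. Of 10 antibodies matched to housekeeping proteins, 4 were higher, 1 was lower and 5 did not pass, against 21.4% higher over the panel, with a median log2 fold change of 0.10. The higher ones were GAPDH at 0.57, Cyclophilin-F at 0.33, PCNA at 0.31 and b-Actin at 0.17. The lower one was Histone-H3_pS10 at -1.27, a mark of mitotic chromatin that the name search took in with Histone-H3. Centring each sample on these controls, each taken relative to its own mean, shifted every log2 fold change by -0.13. The rises then became 0.16 for zeta (adjusted p = 0.0739), 0.07 for epsilon (adjusted p = 0.399) and 0.08 for beta (adjusted p = 0.307), and none of the 3 passed. The balance of calls on the panel went from 148 lower and 94 higher to 181 lower and 42 higher, and that of the 8 antibodies from 5 and 3 to 5 and 0. The part of unequal loading in the 14-3-3 values was not tested. Leaving out sCT replicate 1 also ended all 3 calls (adjusted p between 0.0737 and 0.143), those of zeta and epsilon were lost without sCT replicate 2, those of epsilon and beta without untreated replicate 2, and that of beta without untreated replicate 1.

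Axl, a receptor tyrosine kinase whose gene is a direct target of YAP and TEAD, was at 1.31 and 1.29 in untreated cells. After sCT it was at 0.834 and 0.821. The replicates lay close together in either group, with a wide gap between the groups. Axl fell by 0.65 on the log2 scale (SE 0.04, 95% CI -0.77 to -0.54, adjusted p = 0.000432), to 63.7% of its untreated level. Tyro3, a receptor of the same family, had a log2 fold change of -0.16 with overlapping groups (adjusted p = 0.326).

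The signal of Axl fell by about as much as that of YAP. The changes differed by 0.15 (limma relative to YAP, 95% CI -0.02 to 0.33, adjusted p = 0.0804). The interval leaves room for a slightly smaller fall of Axl. Merlin and YAP differed in their change by 0.05 (95% CI -0.10 to 0.20, adjusted p = 0.440). The change of Axl lay above that of TAZ by 0.93 log2 units (SE 0.03 from the replicates), and that of Merlin by 0.83 (SE 0.06). Each of these pairs gave an exact permutation p = 0.333, the smallest possible. As for TAZ and YAP, such comparisons take the antibodies to respond in proportion, which was not tested.

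Over the 4 samples, the patterns nearest to that of YAP were those of Akt2, ZEB1 and Stat5a. Nearness was the Euclidean distance between log2 levels, each antibody centred on its own mean. Akt2, an isoform of the kinase Akt, lay at 0.0142 and had levels of 1.35 and 1.45 in untreated cells and 0.786 and 0.806 after sCT. ZEB1, a transcription factor of epithelial-mesenchymal transition, lay at 0.0580, and Stat5a, a transcription factor of cytokine signalling, at 0.0651. Merlin came next in place 4 (0.0668) and Axl in place 24, while TAZ was at place 177. For TAZ the nearest were GSK-3a-b_pS21_S9, FOXM1 and PARG, at 0.160, 0.163 and 0.172, and YAP was at place 60. GSK-3a-b_pS21_S9 marks the inhibited form of the kinase GSK3, FOXM1 drives mitotic genes, and PARG removes poly(ADP-ribose). With 4 samples in 2 groups, nearness reflects little more than a fold change of like size.

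A list of Hippo inputs and pathways that meet it held 10 antibodies of the panel, of which 6 were lower and 4 not called, where 55.0% of the panel was called and 33.6% was lower. Their median log2 fold change was -0.30, against 0.02 for the panel. The largest falls were those of GSK-3a-b_pS21_S9 at -1.65, DVL3 at -1.16, GSK-3B at -0.59 and b-Catenin at -0.49. DVL3 and b-Catenin carry the Wnt signal, and GSK3 phosphorylates b-Catenin for degradation. Smad3 and Smad4, the transcription factors of TGF-beta signalling, made up the rest of the calls. E-Cadherin (0.05), b-Catenin_pT41_S45 (-0.05), Smad1 (-0.02) and GSK-3a-b (0.22, adjusted p = 0.0585) did not pass. The list was drawn up with earlier results in view and several of its members were picked by the study, so its count is a description. Rows for the core kinases MST and LATS, for TEAD and for the target proteins CTGF and CYR61 were not matched by name and were not analysed here.

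A longer list of proteins whose genes have been described as YAP/TAZ targets held 13 antibodies, with 5 lower, 2 higher and 6 not called. Its median log2 fold change was -0.07. FOXM1 fell by 1.55 on the log2 scale, from 1.50 and 1.65 to 0.529 and 0.547. Sox2, a stem cell transcription factor, fell by 0.91, from 1.26 and 1.32 to 0.710 and 0.661. The study itself picked Sox2 from these samples, so its fall is not independent evidence. Snail, a repressor of E-Cadherin, and Fibronectin, a matrix protein, fell by 0.54 and 0.36.

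Other listed targets went the other way or did not pass. Cox2, the inducible enzyme of prostaglandin synthesis, rose by 1.69, from 1.04 and 0.836 to 3.22 and 2.80. Bcl-xL, which opposes apoptosis, rose by 0.38. c-Myc (-0.09), Cyclin-D1 (0.08), Jagged1 (-0.03), EGFR (-0.07), EGFR_pY1173 (0.07) and PD-L1 (-0.02) did not pass. Listed targets were thus found on both sides, and the share called, 7 of 13, was near the 55.0% of the whole panel.

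**Figure D4:**
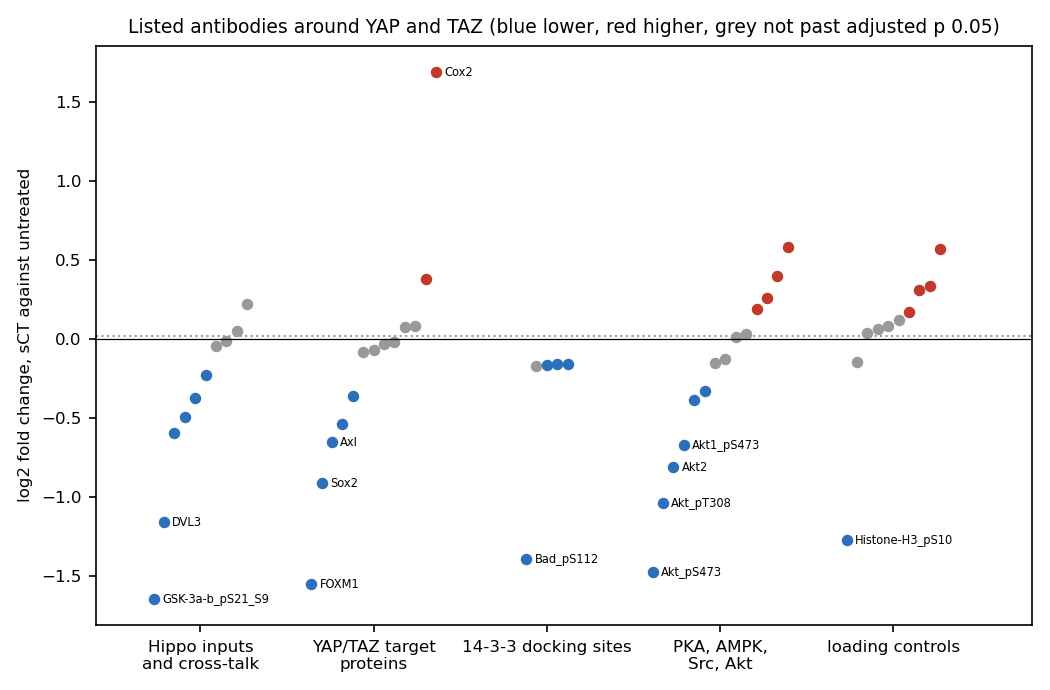
Log2 fold change of each antibody on the lists around YAP and TAZ, sorted within each list, with antibodies past an adjusted p of 0.05 in blue (lower) or red (higher), the others in grey, and the panel median of 0.02 dotted. The Hippo list reaches from -1.65 to 0.22 and the target list from -1.55 (FOXM1) to 1.69 (Cox2), while 4 of the 10 loading controls are red.

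Sites that bind 14-3-3 proteins when phosphorylated were represented by 5 antibodies, of which 4 fell, on a panel where 42 of 88 site antibodies were lower and 9 higher. Bad_pS112, on a cell death protein that 14-3-3 holds inactive, went from 1.16 and 1.23 to 0.431 and 0.481, a fall of 1.39 on the log2 scale. p27_pT157 and p27_pT198, on an inhibitor of cyclin-dependent kinases, fell by 0.17 and 0.16, as much as YAP_pS127. Their total protein, p27-Kip1, changed alike: in the fit relative to YAP its change was 0.65, against 0.64 for each site. PRAS40_pT246, on an mTORC1 inhibitor, was at -0.17 and did not pass (adjusted p = 0.104).

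Kinases described as acting on YAP or its regulators, namely PKA, AMPK, Src and Akt, were covered by 14 antibodies, with 6 lower and 4 higher, where 33.6% of the panel was lower and 21.4% higher. Akt_pS473 fell by 1.47 and Akt_pT308 by 1.04 on the log2 scale, both marks of active Akt. Akt2 fell by 0.81, while total Akt was at 0.03 and did not pass. Akt1_pS473 fell by 0.67 with a wide spread (SE 0.19), its untreated samples lying at 1.36 and 1.96. Akt1, unlike Akt2, rose by 0.19. Src_pY416, the activating site of Src, rose by 0.40 and Src_pY527, the inhibitory site, by 0.58. Total Src rose as well, by 0.25, so that relative to it the sites were higher by 0.15 and 0.33. PKA-a, the antibody to PKA on this list, fell by 0.33. AMPKa_pT172, the activating site of AMPK, fell by 0.39, from 0.654 and 0.723 to 0.507 and 0.544. AMPKa (-0.13), AMPK-a2_pS345 (0.01) and Akt2_pS474 (-0.15) did not pass.

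**Figure D5:**
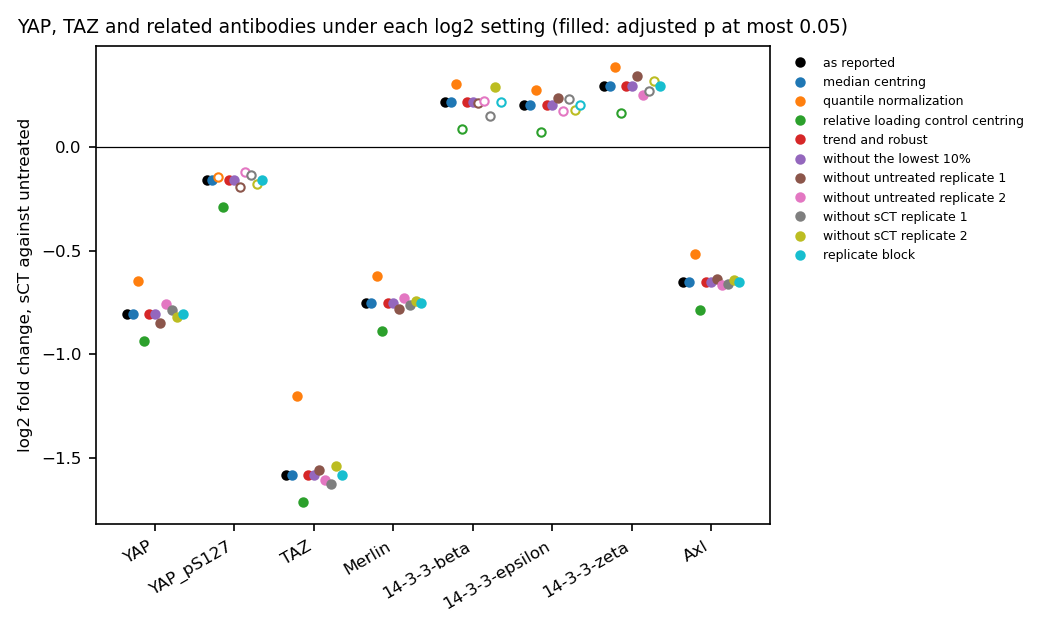
Log2 fold change of the 8 antibodies under each setting on the log2 scale, filled where the adjusted p was at most 0.05. YAP, TAZ, Merlin and Axl are filled under each setting shown, and YAP_pS127 and the 14-3-3 proteins lose their call under several.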

How the data were processed

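Protein levels of LN229 cells, 2 untreated and 2 given 300 nM sCT for 60 min, were measured by RPPA. Lysates were printed as dilution series on slides, probed with antibodies, developed with DAB and read as spot intensities. The authors deposited linear ratios, 1 relative level per antibody and sample, with a median of 1.0 in each sample. The steps between spot intensities and these levels are not given in the sources used here.

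Levels of all 440 antibodies were taken to log2 without a pseudocount, since all were above 0. Groups came from the sample titles. limma 3.58.1 in R 4.3.3 (lmFit, eBayes, no covariates, 2 residual and 2.59 prior degrees of freedom) gave two-sided p-values, adjusted by Benjamini-Hochberg over all 440. Where no other test is named, an adjusted p is limma's. Pairs of antibodies were compared by exact permutation tests in SciPy 1.17.1. The fit was tested on simulated data in which samples varied independently, so that deviations shared between samples were not covered.

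Named in the text were the 8 antibodies, for YAP and for TAZ the 3 nearest patterns, and from each list the 4 largest calls and those that did not pass. Other listed antibodies named were chosen after their values were seen. The antibodies and lists were chosen with earlier results of these data known. A list held the antibodies whose name starts with a listed name. One further target protein of the panel is not reported here, and the counts of the 8 antibodies and the lists leave it out, while the counts over the whole panel include it. The alternatives were linear levels, median centring, quantile normalization, relative loading control centring, eBayes with a trend and robust, a fit without the dimmest 10% of antibodies, leaving out each sample, the replicate number as a block, and an unequal-variance test on linear levels. The limma fit relative to YAP was added after the data were seen. No sequences are shown, since no protein sequences were used here.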

Additional observations from a re-analysis of the deposited data

How the results depend on the processing

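The 8 antibodies passed in limma. The falls of YAP, TAZ, Merlin and Axl kept their direction and call under all alternatives except the unequal-variance test on linear levels, with log2 fold changes of -0.94 to -0.65, -1.71 to -1.20, -0.89 to -0.62 and -0.78 to -0.52. After adjustment that test called 0 of the 8, 1 of the 440, 0 of the Hippo list and 0 of the target list, and at an unadjusted p of 0.05 it called 6, 155, 4 and 6. Its linear differences were -0.647 for YAP, -0.109 for YAP_pS127, -1.08 for TAZ, -0.633 for Merlin, -0.472 for Axl, 0.152 for 14-3-3-beta, 0.138 for 14-3-3-epsilon and 0.207 for 14-3-3-zeta (adjusted p between 0.0723 and 0.291). It estimates the spread of each antibody from 2 samples a group.

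With 1 sample left out, whose group is then assumed to vary like the other, 4 to 6 of the 8 passed and 148 to 214 of the panel's 242. The count of the 8 was 5 without untreated replicate 2, 4 without sCT replicate 1 and 5 without sCT replicate 2, and that of the panel 148 and 158 without either sCT sample. Log2 fold changes then ran from -0.19 to -0.12 for YAP_pS127, 0.15 to 0.29 for 14-3-3-beta, 0.17 to 0.24 for 14-3-3-epsilon and 0.25 to 0.34 for 14-3-3-zeta. Relative loading control centring left 5 of the 8, with 14-3-3-beta at 0.0840, epsilon at 0.0702 and zeta at 0.16. Quantile normalization gave -0.15 for YAP_pS127, -0.55 for TAZ minus YAP and 0.50 for YAP_pS127 minus YAP.

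The replicate numbers are not stated to pair the samples. Taken across the antibodies of the panel, the deviations of same-numbered samples correlated at 0.586. There were only 2 such pairs of samples. With the replicate number as a block, 6 of the 8 and 238 of the panel passed, and 14-3-3-beta at 0.22 (adjusted p = 0.0575) and epsilon at 0.20 (adjusted p = 0.0509) lost their calls.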
